A study of Mus musculus with 7 samples.

Results

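The loci described here are the microRNA genes of the mouse, read against the chromatin positions of Pygo2 and β-catenin in the branchial arches of embryos at 10.5 days post coitum. All genes with the biotype miRNA in the RefSeq gene table of GRCm38.p6 (mm10) were taken, together with genes whose symbol starts with Mir and a number or letter, and the 14 host genes whose symbol ends in hg were left out. This gave 1232 loci among 49980 genes with a chromosome. Of these, 1228 carried the biotype miRNA, and the other 4, the lncRNA genes Mira, Mirg, Mirt1 and Mirt2, entered by symbol alone. The loci were short, with a median length of 80 bp, and 386 of them lay in clusters with less than 10 kb between neighbours. Of the 1232 loci, 826 lay inside 675 protein-coding genes and 406 lay outside.

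The study mapped both proteins by chromatin immunoprecipitation and sequencing (ChIP-seq) of wild-type branchial arches, the paired swellings of the young embryo that give rise to much of the face and throat. About 200 arches were pooled for dissociation and cross-linked with ethylene glycol-bis(succinimidyl succinate) at 1.5 mM for 40 min, with 1% formaldehyde added over the final 20 min. The 7 libraries of the series are a Pygo2 and a β-catenin library from each of BA1 and BA2, one IgG library from BA1, described as pre-immune serum, and an input from each of BA1 and BA2; whether BA1 and BA2 are different arches or repeat collections is not given. The peak lists used here are those of Pygo2 BA2 and β-catenin BA2, both called against IgG BA1 per the file headers, so that the 2 lists share their control. The Pygo2 list held 7150 peaks from 15009636 tags, of which 0.740% lay in peaks, and the β-catenin list 1079 peaks from 13672937 tags, of which 0.116% lay in peaks. Each list rests on 1 library made from pooled embryos, so no value below has a replicate error and no test between groups was made. Intervals are 95% Wilson intervals for counting error only. Since the tissue was a mixture of cell types and peak lists measure no expression, neither the cells that carry a peak nor the activity of a miRNA gene was measured.

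A microRNA is cut from the hairpin of a longer primary transcript, first in the nucleus by Drosha with Dgcr8 and then in the cytoplasm by Dicer, and is loaded onto an Argonaute protein. Its seed, the stretch near the 5′ end, pairs with target messenger RNAs and lowers their output. Many miRNA genes lie in introns and share the promoter of the gene around them, whereas others have transcripts of their own that can start far from the hairpin, so a peak near a hairpin is not by itself a peak at the miRNA promoter. In canonical Wnt signalling β-catenin enters the nucleus and reaches DNA through TCF/LEF factors. Pygo2 is a PHD-finger protein that Bcl9 links to β-catenin.

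The mature miRNAs at the loci on which the results turn are printed first, from the RefSeq table of the same build, 5′ to 3′, with the seed (bases 2 to 8) in capitals. Of the 141 loci with a peak of either library within 5 kb, 130 had a mature sequence in that table. The first set comes from the Mir199 loci and Mir214, which made up most of the mesenchymal miRNAs near Pygo2 peaks:
mmu-miR-199a-5p: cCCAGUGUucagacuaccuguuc
mmu-miR-199a-3p: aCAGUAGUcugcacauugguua
mmu-miR-199b-3p: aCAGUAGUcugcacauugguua
mmu-miR-214-3p: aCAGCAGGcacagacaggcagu
The 3p miRNAs of Mir199a and Mir199b were the same sequence, and their seed CAGUAGU occurred at 3 loci of the table, Mir199a-1, Mir199a-2 and Mir199b, all of which had a Pygo2 peak within 5 kb.

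The second set comes from loci with peaks of both proteins within 5 kb:
mmu-miR-130a-3p: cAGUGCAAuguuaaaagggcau
mmu-miR-181c-5p: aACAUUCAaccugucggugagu
mmu-miR-181d-5p: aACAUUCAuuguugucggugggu
mmu-miR-191-5p: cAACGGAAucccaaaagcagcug
mmu-miR-425-5p: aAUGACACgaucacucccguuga
mmu-miR-707: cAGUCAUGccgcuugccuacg
miR-181c-5p and miR-181d-5p shared the seed ACAUUCA, which the table lists at 6 loci, and Mir181c and Mir181d were the 2 of these with a peak. The seed AGUGCAA of miR-130a-3p was listed at 7 loci, of which Mir130a and Mir301 had a peak. In all, 12 seeds were shared between at least 2 loci with a peak. These include the 5p and 3p seeds of Mir5615-1 and Mir5615-2, which lie on opposite strands of the same place. They also include those of Gm27740 and Gm27775, which both carry miR-6967. Seeds shared among all miRNA loci were not counted, so 12 is not a number of families near peaks.

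Peak centres that fell inside a hairpin are shown with the hairpin, in which capitals mark the mature miRNA. The β-catenin peak centre at Mir484 (chr16:14159626-14159692, plus strand) fell on base 66 of 67, and the Pygo2 peak centre at Mir2861 (chr2:32712807-32712888, minus strand) on base 57 of 82:
Mir484: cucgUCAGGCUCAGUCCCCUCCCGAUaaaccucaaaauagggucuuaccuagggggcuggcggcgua
Mir2861: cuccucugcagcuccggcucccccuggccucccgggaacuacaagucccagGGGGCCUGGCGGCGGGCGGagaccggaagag
The hairpin of Mir6546 also held a Pygo2 peak centre on base 25 of 62. Mir320 likewise held a Pygo2 peak centre and is given by name only.

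Pygo2 peaks lay close to few miRNA loci and within a few kilobases of several times as many. A Pygo2 peak centre lay within 500 bp of 27 of 1232 loci (2.19%, interval 1.51 to 3.17), against 12.2% of the 48748 other genes of the table. Within 5 kb the count was 134 loci (10.9%, interval 9.26 to 12.7), against 15.9% of the other genes. Protein-coding genes stood at 22.0% and 26.4% at these distances. These genes have a median length of 17146 bp and a peak anywhere inside one counts as distance 0, so the shares of miRNA loci and of long genes are not like for like.

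For scale, 0.287% of all placements of an 80-bp locus on the chromosomes would have a Pygo2 peak centre within 500 bp, and 2.48% within 5 kb. The intervals of the miRNA loci lay above both values. These placements are not matched for distance to gene ends. Within 1 kb of a protein-coding gene end lay 12.3% of miRNA loci but 3.09% of chromosome positions, and at 1 to 5 kb 21.8% and 9.29%. Among the other short RNA genes, the Pygo2 share within 500 bp was 0.597% for snoRNA, 2.79% for snRNA and 20.9% for tRNA genes, and within 5 kb 8.58%, 6.18% and 36.0%. The miRNA share thus lay between those of snoRNA and snRNA genes at the short distance and above both at the long one. Its interval overlapped that of snRNA genes within 500 bp (1.94 to 4.00) and that of snoRNA genes within 5 kb (7.20 to 10.2). The median distance from a miRNA locus to the nearest Pygo2 peak was 76.0 kb, with quartiles at 17.2 and 302 kb.

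β-catenin peaks were rarer near miRNA genes, as they were in the genome. A β-catenin peak centre lay within 500 bp of 2 loci (0.162%, interval 0.0445 to 0.590), against 1.89% of the other genes and 3.33% of protein-coding genes. Within 5 kb there were 24 loci (1.95%, interval 1.31 to 2.88), against 2.80% of the other genes and 4.53% of protein-coding genes. An 80-bp locus would have such a peak within 500 bp at 0.0441% of all placements and within 5 kb at 0.404%. The β-catenin shares of snoRNA, snRNA and tRNA genes within 5 kb were 1.42%, 1.20% and 14.7%. The median distance to the nearest β-catenin peak was 620 kb, with quartiles at 200 and 2021 kb.

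**Figure D1:**
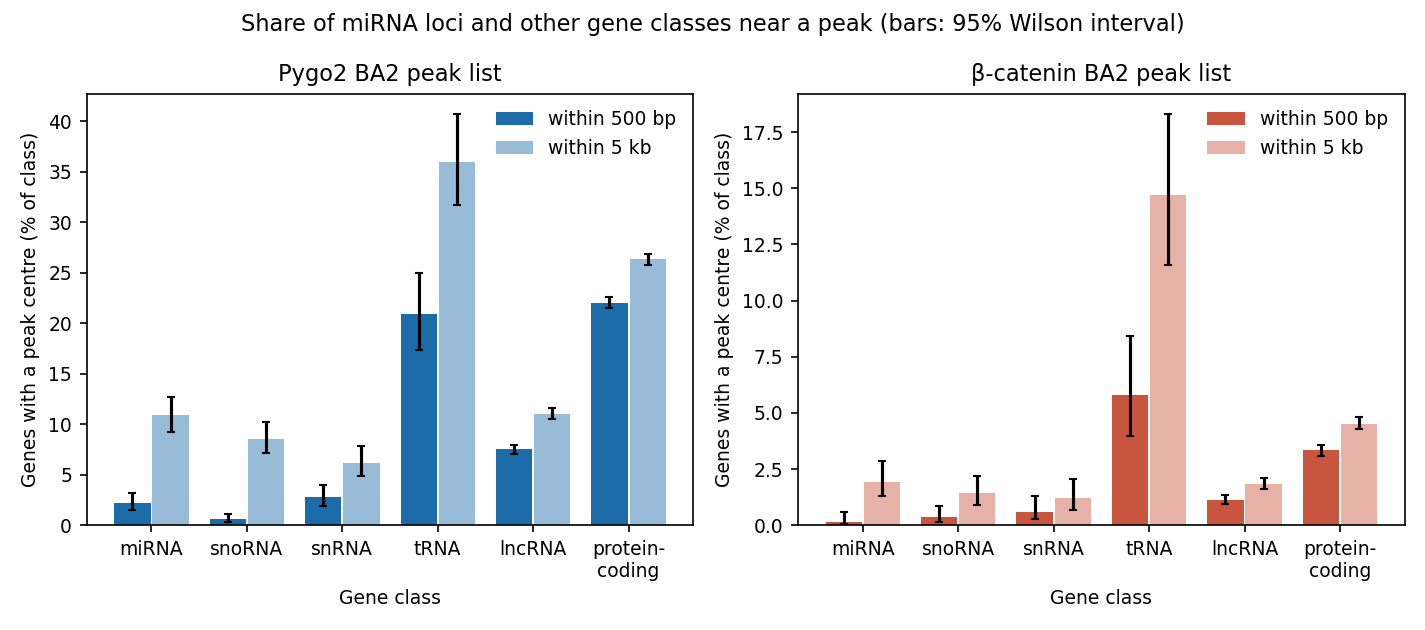
Share of the miRNA loci and of 5 other gene classes with a peak centre within 500 bp (dark) and 5 kb (light), for the Pygo2 list on the left and the β-catenin list on the right; error bars are 95% Wilson intervals. The miRNA bars stand at 2.19% and 10.9% for Pygo2 and at 0.162% and 1.95% for β-catenin, with tRNA and protein-coding genes higher in both lists; a peak inside a gene counts as near it, which weighs on the long classes.

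The members at the limits show how sharp these windows are. For Pygo2, the last loci inside 500 bp were Mir1932 at 476 bp and Mir5133 at 486 bp, and the first outside were Mir1903 at 549 bp and Mir615 at 574 bp. At 5 kb, Mir15b at 4912 bp and Mir7006 at 4973 bp were inside, and Mir16-2 at 5042 bp and Mir1951 at 5084 bp outside. For β-catenin, Mir484 at 0 bp and Mir707 at 337 bp were the only loci inside 500 bp, followed by Mir7238 at 554 bp and Mir1894 at 711 bp. At 5 kb, Mir7653 at 4645 bp and Gm51297 at 4958 bp were inside, and Mir7054 at 5190 bp and Gm51264 at 6599 bp outside. Mir15b and Mir16-2 belong to 1 cluster, so the 5 kb line runs between neighbours there.

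The Pygo2 peaks near miRNA loci lay mostly at the ends of protein-coding genes. Of the 26 distinct peaks that were the nearest one to the 27 loci within 500 bp, 18 (69.2%) were within 1 kb of an end of a protein-coding gene, against 3269 of all 7150 Pygo2 peaks (45.7%). Of the 120 peaks nearest to the 134 loci within 5 kb, 73 (60.8%) were. For β-catenin this held for 7 of 21 peaks (33.3%), against 34.6% of its whole list. Listed gene starts are incomplete, but they also include starts inside genes and starts of genes that are not protein-coding. They gave a different value for β-catenin. Of the 19 of these peaks on chromosomes with listed starts, 11 (57.9%) were within 1 kb of a start, against 35.3% of its list. For the Pygo2 peaks nearest to loci within 5 kb, the share was 61.2%, against 45.2% of its list.

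The share of loci with a Pygo2 peak was lowest far from gene ends. Among the 152 loci within 1 kb of a protein-coding gene end, 19 (12.5%) had a Pygo2 peak centre within 500 bp, against 4.21% of chromosome positions at that distance from a gene end. Among the 269 loci at 1 to 5 kb from an end there were 4 (1.49%, against 0.452% of positions), among the 306 loci at 5 to 20 kb there were 2 (0.654%, against 0.215%), and among the 505 loci farther away there were 2 (0.396%, against 0.107%). Within 5 kb of the locus, the counts were 33 (21.7%), 61 (22.7%), 28 (9.15%) and 12 (2.38%), against 12.9%, 11.0%, 2.10% and 0.953% of positions. For β-catenin within 5 kb, the counts in the same 4 classes were 6 of 152 (3.95%), 11 of 269 (4.09%), 2 of 306 (0.654%) and 5 of 505 (0.990%). The β-catenin shares of positions in these classes were 1.89%, 1.47%, 0.362% and 0.202%. The snoRNA, snRNA and tRNA genes together had a Pygo2 share of 21.2% within 500 bp in the class nearest to gene ends. With loci within 1 kb of a gene end left out, 8 of 1080 loci (0.741%) had a Pygo2 peak within 500 bp and 0 of 1080 had a β-catenin peak, which, taking 3 counts as the limit of a count of 0, allows a share of up to 0.278%.

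**Figure D2:**
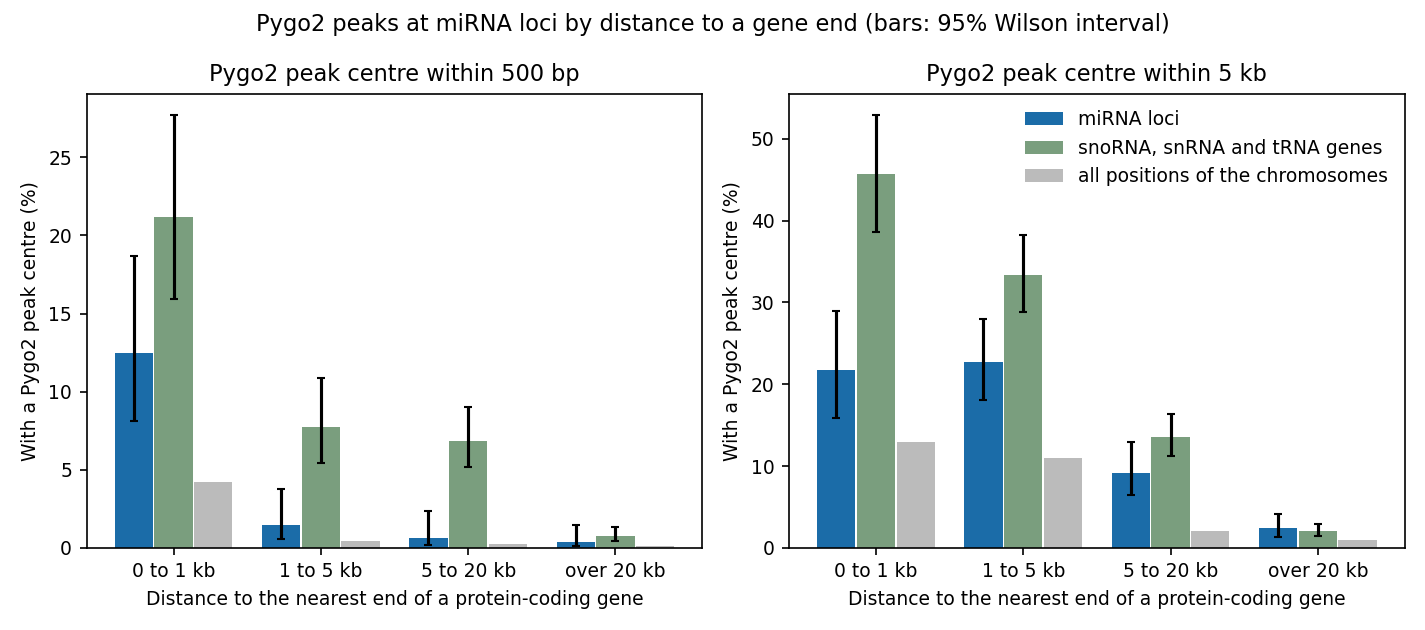
Share of miRNA loci (blue), of snoRNA, snRNA and tRNA genes (green) and of all chromosome positions (grey) with a Pygo2 peak centre within 500 bp (left) and 5 kb (right), by distance to the nearest end of a protein-coding gene; error bars are 95% Wilson intervals. For miRNA loci the share within 500 bp was 12.5% next to gene ends and under 2% in each class farther away, and the share within 5 kb was 21.7% and 22.7% in the first 2 classes and 2.38% beyond 20 kb.

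Loci inside and outside protein-coding genes had similar Pygo2 shares within 500 bp, and loci inside them the higher share within 5 kb. Of the 826 loci inside such a gene, 17 (2.06%) had a Pygo2 peak within 500 bp and 103 (12.5%, interval 10.4 to 14.9) within 5 kb. Of the 406 loci outside, 10 (2.46%) and 31 (7.64%, interval 5.43 to 10.6) did, and the intervals within 5 kb overlap slightly. The placements of an 80-bp locus within 5 kb of a Pygo2 peak were 3.72% inside protein-coding genes and 1.69% outside. Among the 600 loci inside a gene whose strand is in the tables, 518 ran in the direction of their host and 82 against it. The sense loci had a Pygo2 peak within 500 bp at 12 of 518 (2.32%, interval 1.33 to 4.01). The antisense loci had one at 5 of 82 (6.10%, interval 2.63 to 13.5), and these intervals overlap. The loci inside a gene without a known strand had one at 0 of 226 (interval 0 to 1.67), so the shares by strand come from loci richer in peaks. A β-catenin peak lay within 5 kb of 15 of the 826 loci (1.82%) and of 9 of the 406 (2.22%).

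By chromosome, the share of loci with a Pygo2 peak within 5 kb was highest on chromosome 19 (23.1% of 39 loci) and chromosome 11 (19.3% of 88). On the X chromosome it was 1 of 92 loci (1.09%), and chromosome 16 had 0 of 35 (up to 8.57%). The X chromosome also held only 64 of the Pygo2 peaks, against 731 on chromosome 11, 222 on chromosome 19 and 192 on chromosome 16. Shares of other genes were not computed by chromosome, so these values do not single out miRNA loci.

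The 27 loci with a Pygo2 peak centre within 500 bp are described by 4 kinds of place, sorted after their values were seen. The first were 9 loci in the direction of their host with the nearest peak within 1 kb of an end of it. Mir8101 lay inside Hdac5, a histone deacetylase gene, with the peak centre 55 bp upstream of the locus and 33 bp from a start of Hdac5. Mir3091 lay in the ribosomal protein gene Rps21, with the peak 338 bp upstream and 181 bp from the start. Mir7672 in Pde12, Mir8098 in Wdfy2, Mir1932 in Rnf213 and Mir5133 in Glce had peaks 363, 368, 476 and 486 bp upstream, which lay 125, 337, 103 and 471 bp from a start of the host. In each of these 6 genes the hairpin ran in the direction of the host and followed the peak.

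Mir7238 in Ankrd10 had its peak 176 bp upstream, 155 bp from a start of the host. Mir707 in Akt1s1 had 3 Pygo2 peaks within 5 kb, 164 and 726 bp upstream and 4987 bp downstream, the nearest one 311 bp from an end of the host. Mir1938 in Ifrd1 had a peak 4 bp downstream, 481 bp from the start.

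The second kind were 5 loci antisense to their host. Mir762 ran against Bcl7c, with the peak 358 bp downstream and 154 bp from the Bcl7c start. Mir5136 ran against Lbhd1, with the peak 49 bp upstream and 60 bp from an end of 1810009A15Rik, and Mir5620 against Clcn4, with the peak 110 bp downstream and 220 bp from a start of Clcn4. The other 2 were Mir199a-1 and Mir199a-2, described with the mesenchymal miRNAs.

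The third kind were 3 loci in the direction of their host with the peak farther than 1 kb from its ends. Mir6352 in Epha4, an ephrin receptor gene, had the peak 225 bp upstream, 18.1 kb from the nearest listed start of Epha4. Mir7025 in Pdgfra, a growth factor receptor gene of mesenchyme, had it 362 bp downstream, 25.0 kb from the start. Mir6546 held its peak inside the hairpin, 1287 bp from an end of Fcgr3.

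The fourth kind were the 10 loci outside protein-coding genes. Mir1934 and Mir8114 had peaks 401 and 144 bp upstream. These were 7 bp from the start of Mpdu1 and 147 bp from an end of Glul, the glutamine synthetase gene. Mir2861 and Mir3960, known in mice from osteoblast differentiation, shared 1 peak whose centre lay inside Mir2861, 68 bp from Mir3960 and 48 bp from the start of Cdk9, a kinase of transcription elongation. The 2 loci therefore count 1 peak between them.

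Mir210, the miRNA best known for its induction by hypoxia, had a peak 379 bp upstream, 3214 bp from the nearest gene end, that of Rassf7. Mir92b, a relative of the Mir17-92 miRNAs, had peaks 289 and 1084 bp upstream, the nearer one 646 bp from an end of Thbs3. Mir320 held the peak centre within its own 82 bp, 92 bp from an end of Polr3d, a subunit gene of RNA polymerase III. Mir5135 and Mir1953 had peaks 50 and 121 bp downstream, at 219 bp from an end of Plekhg3 and 1988 bp from one of Fam110a. Mir3569 had 2 peaks within 500 bp, one 165 bp downstream, which was 78 bp from an end of Zbtb32, and one 406 bp upstream.

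Across the 27 loci, the nearest peak centre lay upstream of the hairpin at 16, inside it at 3 and downstream at 8, in the direction of the miRNA where its strand was known. The median distance was 176 bp. In the wider set of 134 loci, 74 had the nearest peak upstream, 3 inside and 50 downstream, and the strand was not in the tables for 7.

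**Figure D3:**
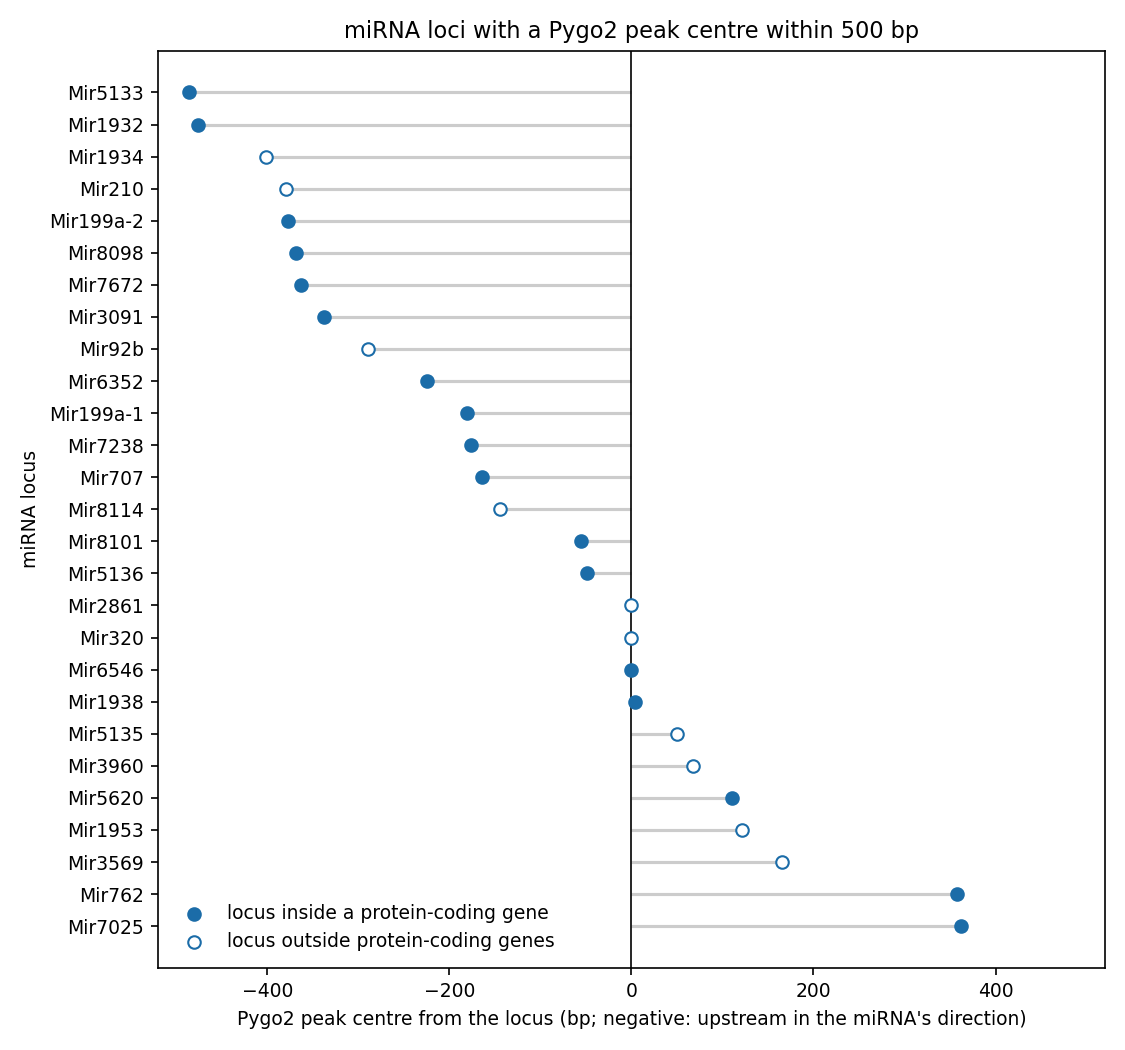
Position of the nearest Pygo2 peak centre for the 27 miRNA loci within 500 bp, in bp from the nearer edge of the locus, negative upstream in the direction of the miRNA; a peak centre inside a locus is drawn at 0. Filled points are loci inside a protein-coding gene and open points loci outside; 16 points lie upstream, 3 at 0 and 8 downstream.

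The 24 loci with a β-catenin peak within 5 kb were led by Mir484, whose hairpin held the peak centre (chr16:14159607-14159775, 413 bp from an end of Marf1), while the nearest Pygo2 peak was 74.7 kb away. Mir707 came next with a peak 337 bp downstream, 264 bp from a start of Akt1s1, the gene of an mTORC1 inhibitor. Mir7238 had a peak 554 bp downstream of the hairpin, 104 bp from a start of Ankrd10. Mir1894 had 2 β-catenin peaks, 711 and 1066 bp downstream inside Ppp1r10, and 2 Pygo2 peaks, 802 bp downstream and 1303 bp upstream. Mir1903 lay in Nrp1, the gene of a receptor for semaphorins and VEGF, with a β-catenin peak 910 bp downstream and a Pygo2 peak at 549 bp.

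Mir145a and Mir143, a pair of smooth muscle miRNAs that share the lncRNA gene Carmn on chromosome 18, had 1 β-catenin peak in common, at 801 bp from Mir145a and 2172 bp from Mir143. The nearest Pygo2 peak was 4198 bp from Mir143 and 5562 bp from Mir145a, so Mir143 counts among loci with both proteins and Mir145a does not. The Pygo2 and β-catenin peaks there were 6432 bp apart.

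Mir191 and Mir425 lay side by side in Dalrd3. Their β-catenin peak (chr9:108570031-108570199) was 1723 bp downstream of Mir191 and 1254 bp downstream of Mir425, 223 bp from a start of Dalrd3. Pygo2 had 3 peaks within 5 kb of both, and the one centred 56 bp before that Dalrd3 start was 279 bp from the β-catenin peak. This start lies downstream of both hairpins. The other Pygo2 peaks were 936 and 1304 bp upstream of Mir191, the nearer one 53 bp from a start of Ndufaf3. Mir181c and Mir181d, outside protein-coding genes, shared a β-catenin peak 2067 and 2241 bp upstream. The centre of this peak was 4.48 kb from the nearest listed start, that of Nanos3, and 37 bp from that of a Pygo2 peak, and the peaks overlapped by 131 bp.

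Mir130a, known in mice and other vertebrates from vessel growth and blood cells, had a β-catenin peak 2501 bp upstream (chr2:84743595-84743763). One of its Pygo2 peaks overlapped it by 140 bp, with centres 28 bp apart, and the other lay 1485 bp upstream. The β-catenin peak was 5024 bp from the nearest protein-coding gene end, that of Ypel4. Mir125b-1, a relative of the worm lin-4 miRNA, had a β-catenin peak 2109 bp upstream inside Mir100hg, 171 bp before the start of Gm51670, and its nearest Pygo2 peak was 57.5 kb away. Mir335, in the imprinted gene Mest, had β-catenin at 4311 bp and Pygo2 at 3186 bp upstream, and the Pygo2 peak was 60 bp from a start of Mest.

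The remaining β-catenin loci were mostly in or beside genes of other functions. Mir3057 in Apba3 and Mir1946b beside Smarca4, which encodes a chromatin remodelling ATPase, had β-catenin peaks 3501 and 2327 bp upstream that overlapped Pygo2 peaks by 119 and 63 bp. Mir3089, Mir6975 in Ddx39b, Mir6935 in the γ-actin gene Actg1 and Mir7653 in Tlcd1 had β-catenin peaks at 2419, 2928, 3651 and 4645 bp and Pygo2 peaks at 2140, 2038, 1516 and 2286 bp. Mir1981 in Mtarc2, Mir7088 in Mst1, Mir6982 in Camk2a and Gm51297 in Zfp628 had β-catenin peaks at 2012, 2208, 4424 and 4958 bp, and their nearest Pygo2 peaks were 89.7, 28.4, 24.1 and 96.5 kb away.

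Both proteins lay within 5 kb of 17 loci (1.38%, interval 0.863 to 2.20), against 1.92% of the other genes. The 17 were 70.8% of the 24 β-catenin loci, against 68.6% of the 1364 other genes with a β-catenin peak within 5 kb, and 12.7% of the 134 Pygo2 loci, against 12.1% of the 7746 other genes with a Pygo2 peak. The share of miRNA loci with both was thus close to that of other genes once a peak of one protein was present. At 6 of the 17 loci (35.3%, interval 17.3 to 58.7) the peaks nearest to each other overlapped. This share was not computed for other genes with both peaks. The closest centres were between 28 and 6991 bp apart, with a median of 279 bp. Mir181c and Mir181d count the same pair of peaks, as do Mir191 and Mir425, so these values are not all independent. The remaining 7 β-catenin loci had no Pygo2 peak within 5 kb, and 117 Pygo2 loci had no β-catenin peak.

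**Figure D4:**
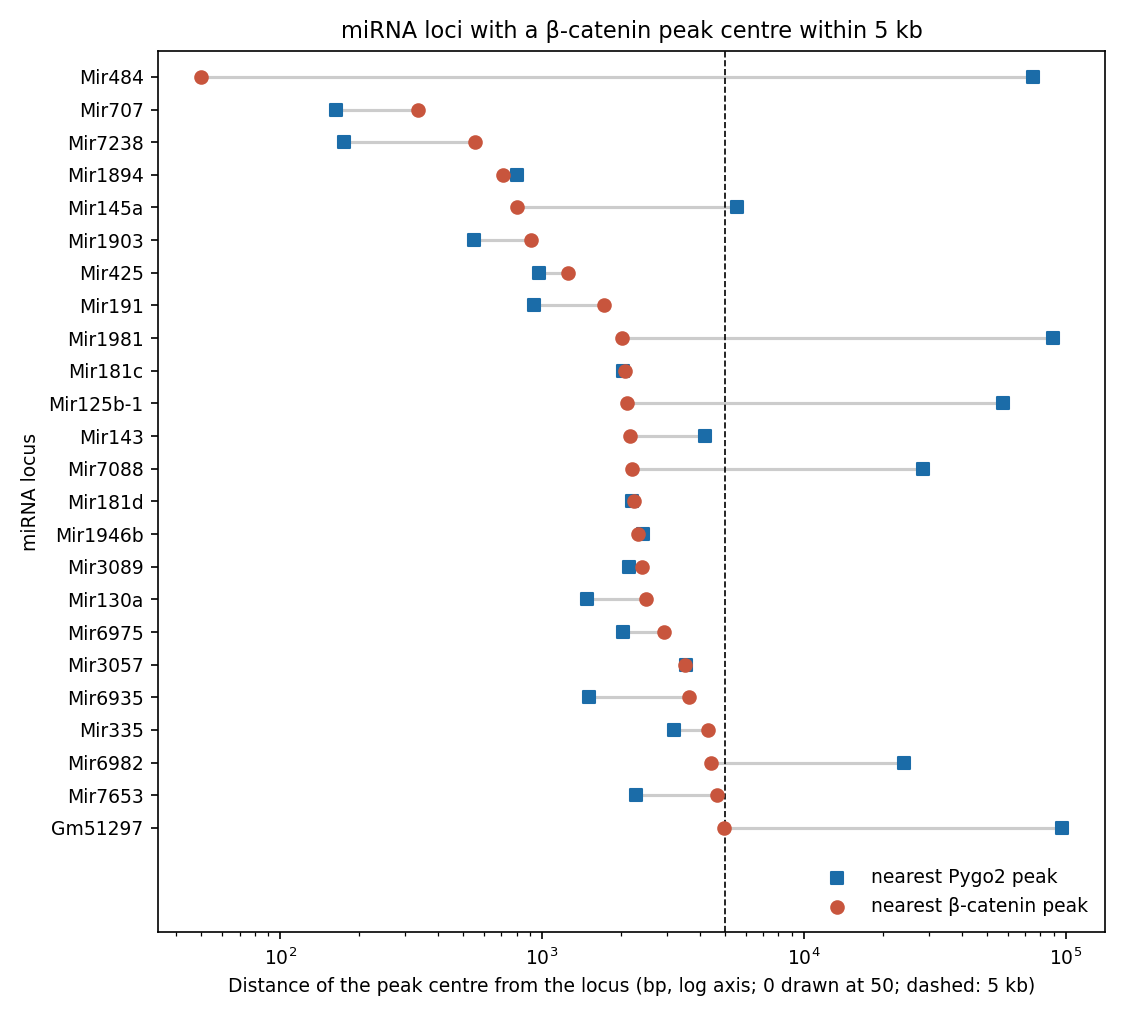
Distance from the locus to the centre of the nearest Pygo2 peak (blue squares) and the nearest β-catenin peak (red circles) for the 24 miRNA loci with a β-catenin peak centre within 5 kb, in bp on a log axis, with 0 drawn at 50 and the dashed line at 5 kb. For 17 loci both points lie left of the line, and for Mir484, Mir145a, Mir1981, Mir125b-1, Mir7088, Mir6982 and Gm51297 the Pygo2 point lies to its right.

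The miRNA families and tissue lists differed in how many members lay near a Pygo2 peak. All lists together held 237 loci of the table, of which 2 (0.844%) had a Pygo2 peak within 500 bp and 24 (10.1%) within 5 kb, beside 25 (2.51%) and 110 (11.1%) of the 995 loci on no list. For β-catenin within 5 kb, the counts were 6 (2.53%) of 237 and 18 (1.81%) of 995. Of the 27 loci within 500 bp of a Pygo2 peak, 25 were thus outside the lists used here, as were 995 of all 1232 loci. Among list members there were only Mir199a-1 and Mir199a-2.

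The list of mesenchymal, skeletal and smooth muscle miRNAs had 6 of 15 members (40.0%) within 5 kb of a Pygo2 peak, beside 10.9% of all miRNA loci. The list is short and was chosen with earlier results of these data known, so the difference is a description only. Mir199a-1, inside Dnm2 and antisense to it, had a peak 181 bp upstream (chr9:21496662-21496828), 10.6 kb from the nearest protein-coding gene end. Mir199a-2, inside Dnm3 and antisense to it, had peaks 377 bp upstream and 890 bp downstream. Mir199b, antisense in Dnm1, had peaks 1259 bp upstream and 1335 bp downstream. Mir214, farther along the same primary transcript as Mir199a-2, had the downstream peak of Mir199a-2 at 4555 bp upstream. Mir22, in its host lncRNA gene Mir22hg, had peaks 628 and 2425 bp upstream, and Mir143 had one at 4198 bp. The members without a Pygo2 peak in reach included the cartilage miRNA Mir140 at 37.2 kb and Mir21a at 13.8 kb. The β-catenin peak nearest to any of the 3 Mir199 loci was 49.8 kb away, from Mir199a-1.

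The peak upstream of Mir199a-2 lay at the start of Dnm3os, the lncRNA gene whose transcript is the precursor of miR-199a-2 and miR-214 and which in mice is needed for normal growth of the skeleton. Its centre was 186 bp before that start and 235 kb from the nearest end of Dnm3. The 300 bases from 250 before to 50 after the Dnm3os start (chr1:162217373-162217672, plus strand) follow, with the 148 bases covered by the Pygo2 peak in capitals:
Dnm3os: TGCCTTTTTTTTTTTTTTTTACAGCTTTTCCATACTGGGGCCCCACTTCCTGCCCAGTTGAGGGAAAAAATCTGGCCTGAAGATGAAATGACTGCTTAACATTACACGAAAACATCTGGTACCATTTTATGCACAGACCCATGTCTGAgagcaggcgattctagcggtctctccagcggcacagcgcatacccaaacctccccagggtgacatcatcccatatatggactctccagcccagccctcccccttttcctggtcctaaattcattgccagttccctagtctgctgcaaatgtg

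Other lists with members near a Pygo2 peak had few independent peaks. In the Mir34 and Mir449 list, Mir449a, Mir449b and Mir449c, which are active in multiciliated cells, shared 1 peak upstream of Mir449c by 732 bp and 128 bp before a start of Cdc20b, while Mir34a, Mir34b and Mir34c had none within 5 kb, Mir34a being nearest at 60.0 kb. In the imprinted Dlk1-Dio3 region, 4 of 47 listed members were within 5 kb of a Pygo2 peak, Mir136 at 1086 bp, Mir434 at 1875 bp, Mir127 at 3559 bp and Mir433 at 4636 bp, and with Mir3071 and Mir432 all 6 shared 1 peak (chr12:109596391-109596557). Of the broad families, 6 of 44 were, namely Mir130a, Mir181c, Mir181d, Mir26b in Ctdsp1 at 2998 bp, Mir301 in Ska2 at 4280 bp and Mir15b in Smc4 at 4912 bp. Among the loci with a peak within 5 kb, 9 Pygo2 peaks were the nearest one to 23 loci and 3 β-catenin peaks to 6 loci.

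Within 5 kb of a Pygo2 peak, Mir133a-2 at 726 bp was the only one of 11 muscle and heart miRNAs (9.09%). Mir615 in Hoxc5 at 574 bp was the only one of 6 miRNAs of the Hox clusters (16.7%). Mir150 at 2680 bp was the only one of 8 blood miRNAs (12.5%). Of all miRNA loci, 10.9% had such a peak. Mir192 and Mir194-2, 2 of 10 miRNAs of liver, gut and pancreas, which were not dissected, shared a peak at 3.33 and 3.53 kb. The 12 let-7 loci had no peak within 5 kb, the nearest being Mirlet7b at 5.42 kb. The Mir17-92 cluster with its paralogs had none among 15, with Mir106b nearest at 5.35 kb, and the 7 epithelial miRNAs had none, with Mir141 at 5.71 kb and Mir200c at 6.12 kb. The 18 neural, 13 pluripotency and 2 endothelial miRNAs had none. Counts of 0 in lists this short allow shares of up to 25.0% for let-7, 20.0% for Mir17-92 and paralogs, 42.9% for the epithelial, 16.7% for the neural and 23.1% for the pluripotency miRNAs. These limits treat the loci as independent, which members of the same cluster are not, so they are too narrow. All of them lie above the 10.9% of all miRNA loci.

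The large rodent clusters were far from peaks of either protein. The 72 loci of the Sfmbt2 cluster on chromosome 2 had no Pygo2 and no β-catenin peak within 5 kb (up to 4.17%) and a median distance of 1012 kb to Pygo2. The list of X-linked testis miRNAs had none among 23 (up to 13.0%), with a median distance of 6906 kb, and 1 of its members, Mir3470a, lies on chromosome 6 in the table. Loci of a cluster share their surroundings, so these counts stand for few independent places.

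**Figure D5:**
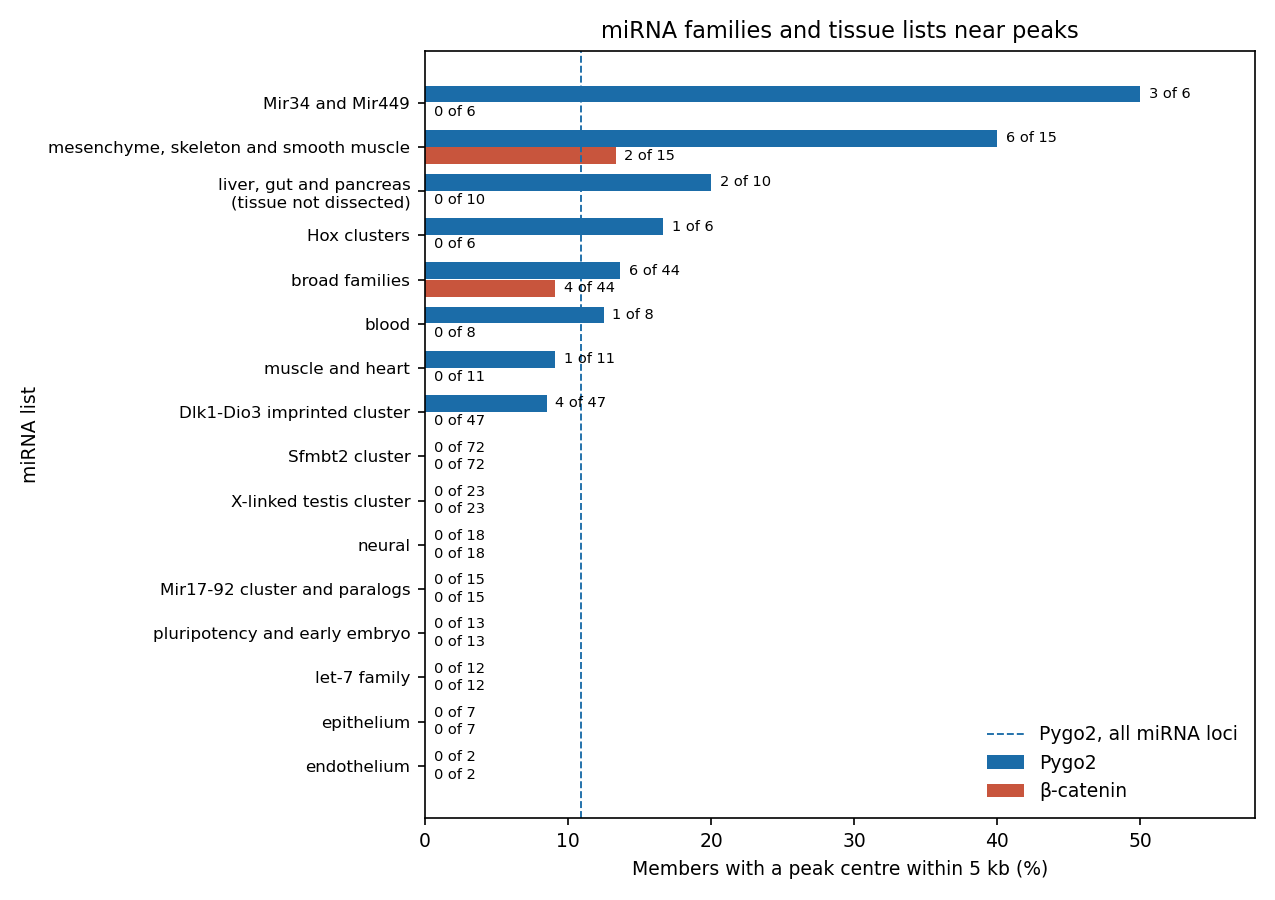
Share of the members of each miRNA list with a peak centre within 5 kb, for Pygo2 (blue, upper bar) and β-catenin (red, lower bar), with the counts written beside the bars and the Pygo2 share of all miRNA loci (10.9%) as a dashed line. The Mir34 and Mir449 list and the mesenchymal list have the longest bars, with 3 of 6 and 6 of 15 members for Pygo2, the first from a single shared peak, and 8 lists have no member near a peak of either protein.

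Where a peak centre fell in the 300-base window around a gene start, that window was searched for the TCF/LEF core in the spellings CTTTGAA and CTTTGAT on both strands. Of the 51 windows with the Pygo2 peak nearest to a miRNA locus, 4 (7.84%) held it, and of the 4 such β-catenin windows 1 did, against 8.65% of all 32851 windows of the RefSeq promoter table. Of all windows with a Pygo2 peak centre 5.04% held it, and of all with a β-catenin centre 5.11%. A match is a run of letters and not a bound site. The windows of Cdc20b for the Mir449 loci (chr13:113035129-113035428, plus strand), of Dalrd3 for Mir425 (chr9:108569642-108569941, plus strand) and of Gm51670 for Mir125b-1 (chr9:41579597-41579896, minus strand) are shown with the match in capitals, since these are known miRNA families near a matched window:
Cdc20b: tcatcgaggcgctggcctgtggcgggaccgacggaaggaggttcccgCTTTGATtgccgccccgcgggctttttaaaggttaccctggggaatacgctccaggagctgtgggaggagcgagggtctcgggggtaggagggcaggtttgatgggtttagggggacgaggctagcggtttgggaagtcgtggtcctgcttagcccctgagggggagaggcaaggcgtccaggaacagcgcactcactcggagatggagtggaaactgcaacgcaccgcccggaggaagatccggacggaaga
Dalrd3: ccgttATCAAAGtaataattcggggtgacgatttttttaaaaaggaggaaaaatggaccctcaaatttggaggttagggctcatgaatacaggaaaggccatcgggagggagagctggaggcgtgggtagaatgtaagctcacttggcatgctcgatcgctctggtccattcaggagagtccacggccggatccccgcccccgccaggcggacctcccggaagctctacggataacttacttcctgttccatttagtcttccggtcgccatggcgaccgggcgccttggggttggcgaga
Gm51670: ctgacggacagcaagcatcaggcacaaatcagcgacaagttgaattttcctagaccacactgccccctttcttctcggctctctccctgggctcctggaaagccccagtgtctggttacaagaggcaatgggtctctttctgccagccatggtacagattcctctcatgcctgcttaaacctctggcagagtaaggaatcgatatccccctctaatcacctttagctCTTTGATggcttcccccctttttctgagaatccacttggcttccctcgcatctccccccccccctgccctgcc
The match lay 72 bp from the Pygo2 peak centre at Cdc20b and 186 bp from it at Dalrd3, and 151 bp from the β-catenin peak centre at Gm51670. The Dalrd3 window lies downstream of the Mir425 hairpin, and Gm51670 runs opposite to Mir125b-1. The Dnm3os window held no match.

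The protein-coding genes that make and use miRNAs had Pygo2 peaks more often than the miRNA loci, but they are long genes, so that protein-coding genes are the closer measure. Of 27 such genes, 14 (51.9%) had a Pygo2 peak centre inside or within 500 bp and 18 (66.7%) within 5 kb, beside 22.0% and 26.4% of all protein-coding genes. Genes of like length were not compared, and the list was chosen with earlier results of these data known. Whether gene length accounts for the difference was not tested. Among the nuclear steps, Drosha had a peak 63 bp away, Srrt one at 35 bp, and Ddx5 and Ran one inside the gene, whereas Dgcr8 was at 4165 bp and Xpo5, the exporter of hairpins, at 4561 bp. Dicer1 had one at 294 bp and the Argonaute gene Ago2 at 469 bp, while Ago1 and the silencing partners Tnrc6a, Tnrc6b and Tnrc6c had one inside the gene. Of the genes that control let-7 or turn miRNAs over, Tut4, Tut7 and Xrn2 had one inside, Trim71 one at 142 bp and Lin28a one at 2442 bp. No Pygo2 peak lay within 5 kb of Ddx17, Ncbp1, Ncbp2, Tarbp2, Prkra, Ago3, Ago4, Lin28b or Dis3l2. β-catenin peaks lay within 5 kb of 2 of the 27 (7.41%), Dgcr8 at 4.57 kb and Ncbp2 at 4.88 kb, beside 4.53% of protein-coding genes.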

How the data were processed

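Per the file headers, the authors made the deposited lists with HOMER findPeaks (style factor) at a false discovery rate of 0.001, at least 2-fold over the IgG control and over the local 10 kb, and a Poisson p-value of 1e-04, with at least 10 tags for Pygo2 and 11 for β-catenin. Bowtie, Bowtie2 and the build mm10 are named, without versions, in the submitters' processing notes. Each deposited peak has 1 fixed width, 167 bp for Pygo2 and 169 bp for β-catenin, and a deposited score of 1, which ranks nothing; other deposited columns, such as peak names, were not measurements. Tag counts of single peaks entered no value. The headers name IgG BA1 as control.

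Distances ran from the peak centre to the nearer edge of a locus, 0 if inside, with 1-based coordinates. Placement shares count every position at which an 80-bp locus would lie within the window. The gene table has no strand or exons. Strands came from RefSeq's miRNA table (1072 of 1232 loci matched) and starts from its promoter table (79.9% of protein-coding genes). Gene ends were therefore the main measure for counts. Starts were used locus by locus, for the promoter windows, and for the shares of peaks near a listed start. All loci within 5 kb of β-catenin, within 500 bp of Pygo2 or near both were named, with up to 4 members of each list and the loci next to the limits; further list members were named as examples after their values were seen. Of 247 listed miRNA symbols, 237 matched, and of 29 biogenesis genes 27. The members and lists were chosen with earlier results of these data known, and the Sfmbt2 and Rtl1 groups come from the table. Distance code was checked on simulated data. Python 3.11.15, NumPy 2.4.6, pandas 2.3.3, SciPy 1.17.1 and Matplotlib 3.10.9 were used. Alternatives changed the window, the distance, the clustering, the list length, the members and the overlap.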

Additional observations from a re-analysis of the deposited data

How the results depend on the processing

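Of 43 values recomputed under another setting, 30 stayed within the interval of the reported one and 13 did not. With a window of 1 kb, 3.90% of loci had a Pygo2 peak and 0.325% had both proteins. With 2 kb these were 5.60% and 0.487%, and β-catenin stood at 0.649%. With 10 kb the Pygo2 share was 17.4% and the β-catenin share 2.92%. With the first 50% of each list in deposited order, 7.39% and 1.22% of loci had a Pygo2 and a β-catenin peak within 5 kb. With the Pygo2 list shortened to the length of the β-catenin list, its shares were 0.568% within 500 bp and 3.17% within 5 kb. Without loci within 1 kb of a protein-coding gene end, the shares within 500 bp were 0.741% for Pygo2 and 0 for β-catenin. In each of these the window, the peaks or the loci counted are fewer or more by construction. Leaving out loci at gene ends need not lower a share. Its fall within 500 bp reflects that 19 of the 27 loci with such a Pygo2 peak lay within 1 kb of a gene end. Peak edges, locus centres, 1 locus per cluster, the biotype alone, a wider choice of hosts and a stricter overlap stayed within the intervals. No paired analysis was possible because each list rests on 1 library and no test was made.

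The main limits are 1 library per protein, an IgG control from BA1 for lists of BA2, no peak strength, and hairpin positions that are not start sites of primary transcripts. A locus without a peak is not shown to be unbound at these depths.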
